A study of Rattus norvegicus with 12 samples.

Results

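Steady-state RNA of rat primary cortical neurons was compared between cultures exposed to amyloid-β (Aβ) and cultures given vehicle, in the total RNA of the cytosolic lysate. The comparison holds 6 of the 12 libraries of the series, chosen by their sample titles. These are the 3 Aβ total libraries with sample numbers 3, 7 and 11 and the 3 vehicle total libraries with sample numbers 4, 8 and 12. The neurons came from embryonic Sprague-Dawley rats and were kept to 28 days in vitro. Aβ total cultures received 100 nM of synthetic rat Aβ peptide, in a preparation that included oligomers, for 24 h. Vehicle total cultures received the buffer alone, and both groups were exposed to cycloheximide, which stalls ribosomes, before lysis. The other 6 libraries came from ribosomes pelleted through a sucrose cushion and are used below only to show where total RNA differs from them. The 2 fractions are described as sequenced in pairs, but the sources used here do not state which libraries form a pair or which 3 samples went through another bead capture, so that p-values measure only the spread between these libraries. The cultures are bulk samples, in which fewer cells of a type and less RNA per cell cannot be told apart.

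Aβ is cut from the amyloid precursor protein, and its soluble oligomers act on synapses before plaques form. A neuron can answer such a stimulus at several levels. Transcription and mRNA decay set how much of an mRNA the cytosol holds, which total RNA measures, whereas translational control sets how many ribosomes load onto that mRNA without any need for its amount to move. The comparison asks how far the first level moved at a nanomolar dose.

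The files list genes by Ensembl rat identifiers (ENSRNOG) or by identifiers given in the annotation step, such as Novel00207, and do not pair them with names. None of them matched the reference gene table (0 of 25424), which held no Ensembl identifiers for rat. For that reason no gene is named, the cell type on the labels could not be set against its markers, and no sequence is shown. Genes are therefore described by their level, their transcript length and their values in each library. Levels are fragments per kilobase of transcript, divided by the mapped fragments of the library in M (FPKM), put on a common scale with size factors by the median of ratios, which ranged from 0.972 to 1.02. Because the authors counted whole fragments, the FPKM of a gene step in whole multiples, and from these steps the fragments and the transcript length of 12295 of the 12311 genes tested were recovered. The 6 libraries held 16.3 M to 18.8 M mapped fragments, at which 3 fragments on a transcript of 2000 bases give an FPKM of 0.0799 to 0.0920. Between 16481 and 17076 genes were above 0 in a library, and the 20 highest genes took 13.8 to 15.2% of the summed FPKM.

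Total RNA of Aβ-treated neurons was close to that of vehicle-treated neurons across the genes measured. Of the 12311 genes tested, those averaging an FPKM of 1 or more across the 6 libraries, 0 (0%) passed an adjusted p of 0.05 in limma, and the smallest adjusted p was 0.999996. At an unadjusted p under 0.05 there were 182 genes (1.48% of those tested), 96 higher (0.78%) and 86 lower (0.699%) with Aβ. That is below the share of 0.05 that this threshold gives without any treatment effect. The median log2 fold change was -0.000555, and the 1st and 99th percentiles lay at -0.33 and 0.33. The median size of a log2 difference between the groups was 0.0534. The median SD of a gene was 0.111 within the Aβ libraries (n = 3) and 0.113 within the vehicle libraries (n = 3). These are unlike measures and are given as a description. A difference between means of 3 libraries is expected to be smaller than the SD of single libraries even without a treatment effect.

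The intervals of the fold changes say how large a difference these libraries leave room for. For 10987 genes (89.2%) the 95% confidence interval of the log2 fold change lay wholly within 1.5-fold of no change in either direction, and for 12058 (97.9%) within 2-fold. For the remaining 253 genes the interval reached beyond 2-fold. That number depends on the scale, and was 743 with a pseudocount of 0.1, 819 of 12295 genes with voom weights on the recovered fragments and 584 with the spread estimated over all 12 libraries. Within 1.5-fold these settings left 79.3, 79.6 and 71.4% of genes. The precision followed the level. Of 1263 genes with a mean FPKM from 1 to under 2, which rested on a median of 45.2 fragments per library, 64.9% had an interval within 1.5-fold. The share was 75.7% of 1982 genes from 2 to under 5, 93.4% of 4433 genes from 5 to under 20, 97.8% of 3759 genes from 20 to under 100 and 97.0% of 874 genes at 100 or more. For genes of low level the comparison is therefore less tight, and for many of them the interval leaves room for a difference over 1.5-fold. The shares by level were taken only on the scale with 1 added, which shrinks the differences and intervals of low genes. Genes with an identifier of the annotation step were inside 1.5-fold in 74.6% of 910 cases, and Ensembl genes in 90.4% of 11401. Their median levels were unlike, 2.75 and 14.4 FPKM, and within 2-fold the shares were 98.2 and 97.9%.

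In 688 genes (5.59% of those tested) the Aβ and vehicle libraries did not overlap. All 3 Aβ libraries lay above all 3 vehicle libraries in 358 of them (2.91%) and below in 330 (2.68%). With 3 libraries against 3, an exact permutation test of a single gene cannot go below p = 0.1. If the 6 libraries were exchangeable, a share of 0.1 of genes would lie apart without any treatment effect, above the 5.59% seen. Most of these differences were small, since 20 of the 688 genes exceeded 1.5-fold. No gene tested was above 0 in every library of 1 group and at 0 in every library of the other. Among all 25424 genes, 22 were above 0 in each Aβ library and listed at 0 in each vehicle library, with a mean of 1.20 FPKM or less over the Aβ libraries, and 27 showed the opposite pattern, with a mean of 1.53 or less over the vehicle libraries.

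**Figure D1:**
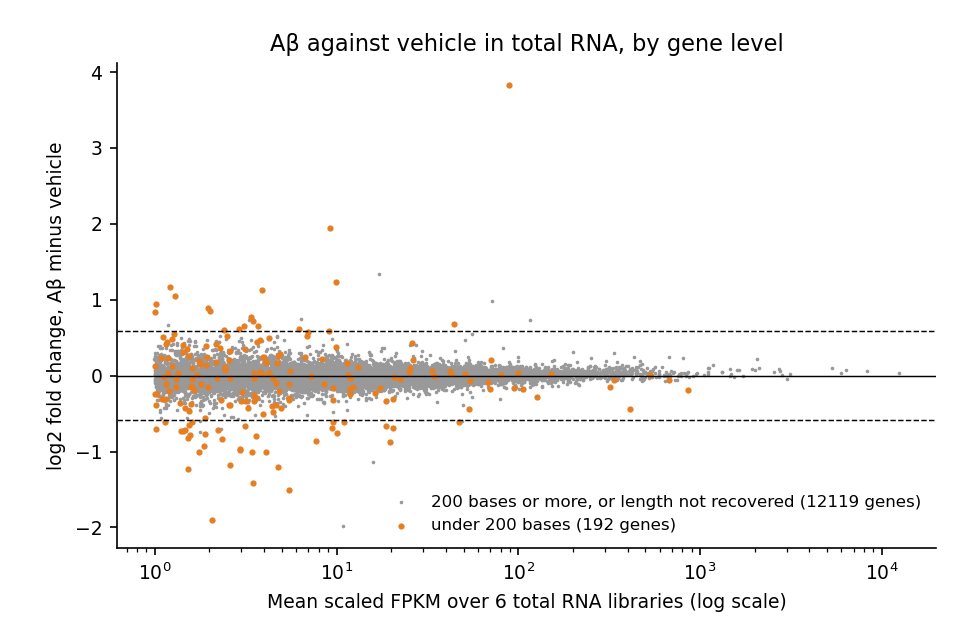
Log2 fold change of each of the 12311 genes (Aβ minus vehicle, scaled FPKM plus 1) against its mean scaled FPKM over the 6 total RNA libraries on a log axis, with dashed lines at 1.5-fold. Genes with transcripts under 200 bases, in orange, make up 54 of the 67 points outside the dashed lines, and 13 of the other genes lie outside them as well, down to -1.98.

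The genes that moved furthest were mostly short, of low level and covered by few fragments. Of 67 genes (0.544%) with a fold change over 1.5-fold, 25 higher and 42 lower with Aβ, 54 had a recovered transcript length under 200 bases, although such short genes were 1.56% of those tested. They numbered 192, and 28.1% of them exceeded 1.5-fold (19 higher, 35 lower), against 1.08% of 465 genes from 200 to 500 bases, 0.475% of 1474 genes from 500 to 1000 bases, 0.0245% of 4082 genes from 1000 to 2000 bases 0 of 5216 genes from 2000 to 5000 bases and 0 of 866 longer genes (each class includes its lower bound and not its upper one). The length classes were chosen after the values were seen. Annotated transcripts this short are as a rule small RNAs or fragments of gene models and not full mRNAs, and these libraries were made from polyadenylated RNA. Of the 67 genes over 1.5-fold, 43 had a mean FPKM under 5, and the 67 rested on a median of 5.5 fragments per library. Among the 12311 genes tested, 1263 had a mean FPKM from 1 to under 2 and 1982 from 2 to under 5. The 192 short genes rested on a median of 5.83 fragments per library, and 57 of them were listed at 0 in at least 1 of the 6 libraries. Their median SD within a group was 0.578 on the log2 scale, against 0.119 for all genes. Where a gene is seen in few libraries its length is the smallest whole number that gives its values, so that the true length can be a multiple of it.

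Few of these differences held in every pairing of libraries. The sample numbers fall into runs of 4 (1 to 4, 5 to 8 and 9 to 12), each with 1 library of every group, and within a run the Aβ total library can be set against the vehicle total library of the same run. Only 8 genes differed by over 1.5-fold the same way in all 3 runs, 2 higher and 6 lower, and 7 of the 8 had transcripts under 200 bases. On average over the libraries 18 genes (0.146%) exceeded 2-fold on the log2(scaled FPKM + 1) scale, 7 higher and 11 lower. On that scale no gene differed by over 2-fold the same way in all 3 runs, whereas 53, 53 and 79 genes did so within single runs. Adding 1 shrinks the ratios of low genes, and by the ratio of scaled FPKM alone 6 genes did so, 3 higher and 3 lower, 5 of them under 200 bases. Across all genes, 1678 (13.6%) were higher and 1771 (14.4%) lower with Aβ in each of the 3 runs. With only 3 runs, many genes fall in each of these counts without any treatment effect.

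The gene with the smallest unadjusted p among those lower with Aβ was ENSRNOG00000035461, whose recovered transcript is 95 bases long. Its scaled FPKM was 2.24, 3.57 and 1.72 in Aβ libraries 3, 7 and 11 and 5.39, 6.89 and 8.64 in vehicle libraries 4, 8 and 12. All vehicle values were above all Aβ values, but the gene rested on a mean of 7.83 fragments per library. Its log2 fold change was -1.20 (SE 0.22, 95% interval -1.71 to -0.68), and the adjusted p of 0.999996 in limma did not pass. In the ribosome pellet the gene showed no such order, with 7.45, 3.74 and 3.70 in Aβ libraries 1, 5 and 9 and 0.776, 1.27 and 5.67 in vehicle libraries 2, 6 and 10.

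The next, ENSRNOG00000046194, was better covered at a mean of 73.3 fragments, on a transcript of 77 bases. It stood at 43.5, 42.6 and 50.9 in the Aβ libraries and at 58.3, 63.0 and 64.7 in the vehicle libraries. The groups did not overlap, and the gene was lower with Aβ in each run. The log2 fold change was -0.44 (SE 0.082, 95% interval -0.63 to -0.25, limma adjusted p 0.999996). With the run as a block its interval narrowed to -0.55 to -0.32, and the adjusted p in limma was 0.349, the smallest of the blocked fit. ENSRNOG00000046519, picked after its values were seen, shared that adjusted p. Its unadjusted p in the blocked limma fit was smaller (3.6e-05 against 5.7e-05). That gene, with a transcript of 88 bases, had a log2 fold change of -0.69 and was lower with Aβ in each run.

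Among genes higher with Aβ, Novel00207 led. Aβ libraries held 3.99, 3.67 and 3.34 and vehicle libraries 2.52, 2.23 and 2.15, so that the lowest Aβ value was above the highest vehicle value. The log2 fold change was 0.50 (SE 0.11, 95% interval 0.24 to 0.76, limma adjusted p 0.999996) on a transcript of 293 bases. In the pellet the same gene stood the other way round, at 0.220, 0 and 0.200 in Aβ and 2.77, 0.821 and 1.23 in vehicle libraries. The test of the difference between the fractions gave an interaction of 1.68 on the log2 scale, with an adjusted p of 0.99984 in limma.

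The other leading higher gene was ENSRNOG00000013794, with a transcript of 711 bases. Its values were low, 1.72, 1.43 and 1.84 with Aβ and 0.720, 0.460 and 0.888 with vehicle, and they did not overlap. It was the only gene of 200 bases or more among the 8 that exceeded 1.5-fold in each run. The log2 fold change was 0.66 (SE 0.16, 95% interval 0.30 to 1.03, limma adjusted p 0.999996). At so low a level the added 1 shrinks it. It was 1.19 with a pseudocount of 0.1 and 1.28 with voom weights, both above that interval, and the gene did not pass in either. Pellet libraries of the run 9 to 12 held more of it than any total library, 8.74 with Aβ and 8.42 with vehicle.

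**Figure D2:**
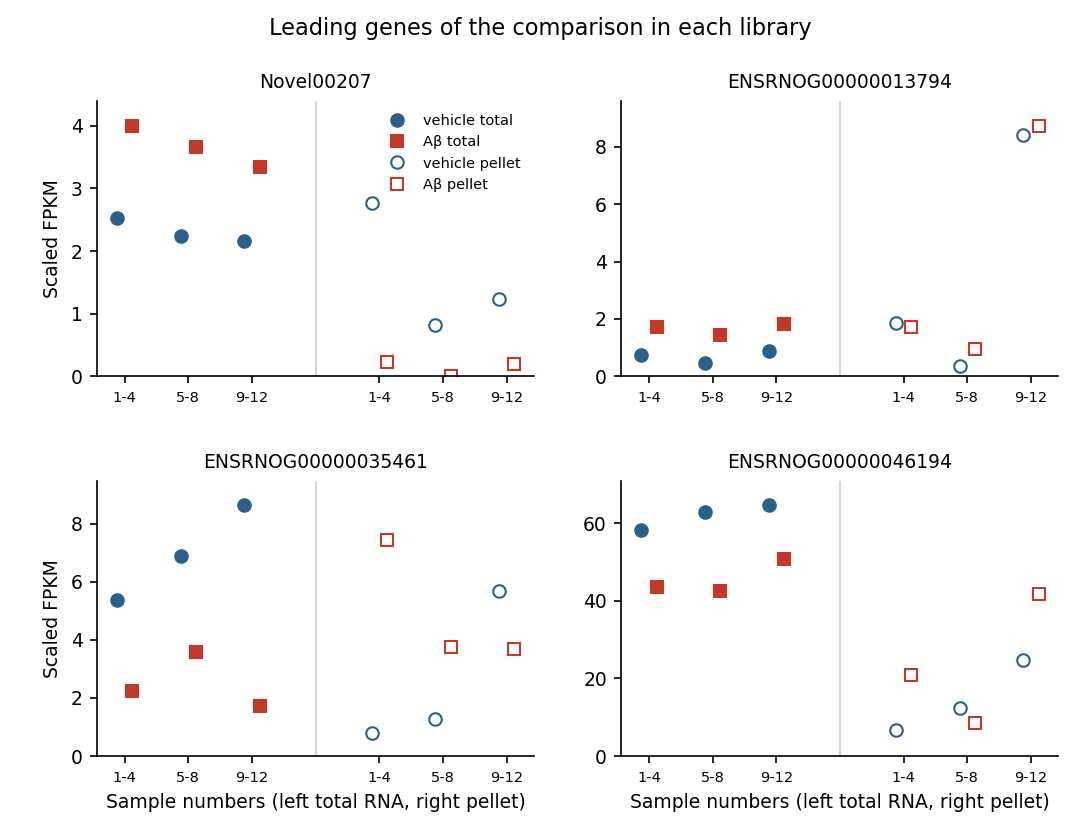
Scaled FPKM of the 4 leading genes in each library, by run of sample numbers, with total RNA on the left of each panel (filled) and ribosome pellet on the right (open), Aβ as squares and vehicle as circles. In total RNA the squares and circles do not overlap in any of the 4 panels. That follows largely from picking these genes by the smallest unadjusted p in the same total RNA libraries. The pellet libraries, which played no part in the choice, show another order or none.

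The genes at both ends of the fold changes each rested on a minority of the libraries. These 2 and the gene after them were singled out after their values were seen. ENSRNOG00000048872 had the highest log2 fold change, 3.83 (SE 1.97, limma adjusted p 0.999996), from values of 526, 0 and 4.44 in Aβ libraries 3, 7 and 11, while it was listed at 0 in all 3 vehicle libraries. With the run as a block and voom weights it passed, with a log2 fold change of 6.60 and an adjusted p of 0.0106 in limma. Outside total RNA it appeared in 1 library alone, Aβ pellet library 9, at 415. ENSRNOG00000049813 had the lowest, -1.98 (SE 0.88, limma adjusted p 0.999996), with 18.8, 1.81 and 0.166 in Aβ libraries against 15.6, 14.9 and 14.2 in vehicle libraries. Here Aβ library 3 was at the vehicle level and the other Aβ libraries below it. ENSRNOG00000049025 stood at 25.9, 25.7 and 19.8 in Aβ libraries and at 5.25, 5.80 and 20.8 in vehicle libraries, a log2 fold change of 1.34 (SE 0.44, limma adjusted p 0.999996). Vehicle library 12 lay at the Aβ level, and without it the gene passed, with a log2 fold change of 1.92 and an adjusted p of 0.0365 in limma.

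The median log2 fold change by length class descended from 200 bases upwards, while the class under 200 bases, at -0.045, stood below all of them (0.0083 without Aβ library 11). The median log2 fold change was 0.036 for genes from 200 to 500 bases, 0.023 from 500 to 1000, 0.0095 from 1000 to 2000, -0.0083 from 2000 to 5000 and -0.024 at 5000 bases or more, and with upper-quartile scaling the class from 2000 to 5000 turned to 0.00023. In the same order of classes, the Aβ libraries lay above all vehicle libraries in 6.67, 5.22, 3.82, 1.67 and 0.693% of genes. They lay below in 3.87, 2.31, 2.40, 2.72 and 2.66%, with no such descent, and under 200 bases the shares were 0.521% above and 7.81% below.

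The order was not the same in each run, and 2 libraries stood apart. Across the 12103 genes of 200 bases or more, the deviation of a library from the mean of the 6 had a Spearman's rho with length of -0.132 in Aβ library 11 and of 0.109 in vehicle library 8, with the other 4 between -0.023 and 0.021. Without library 11 the medians were 0.032 at 200 to 500 bases and -0.012 at 5000 or more, and without library 8 they were 0.047 and -0.014. In the run 9 to 12 the medians of the within-run differences went from 0.014 at 200 to 500 bases to -0.054 at 5000 or more, and in the run 5 to 8 from 0.047 to -0.024. In the run 1 to 4 the class from 200 to 500 bases stood at 0.066 and the longest genes at 0.0071, above 0. The runs themselves, averaged over both treatments, differed from each other by medians of -0.021 to 0.024 in the longest genes. In the pellet the medians over the 3 runs were ordered the opposite way, from -0.067 at 200 to 500 bases to 0.078 at 5000 or more. That order came from the run 1 to 4, with -0.253 and 0.236. The other pellet runs gave -0.038 and -0.019 (5 to 8) and 0.076 and 0.0074 (9 to 12). The part that library preparation played in the trend with length was not tested.

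**Figure D3:**
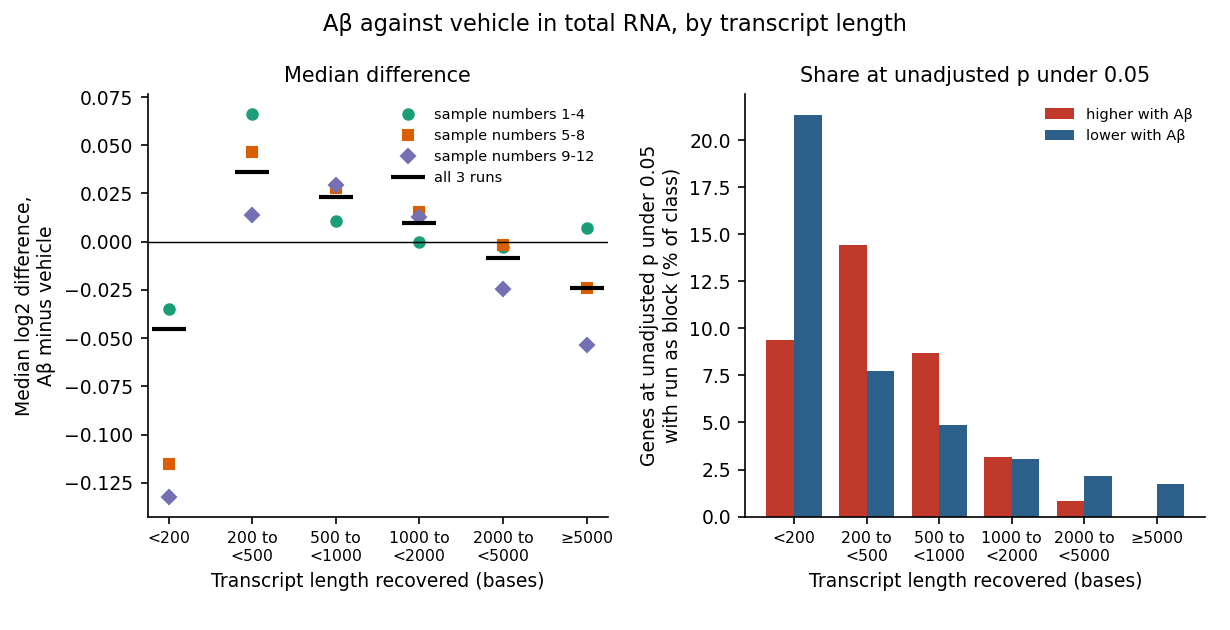
Aβ against vehicle in total RNA by transcript length, as the median log2 difference within each run and over the 3 runs (left), and as the percent of genes in each class at an unadjusted p under 0.05 with the run as a block, higher and lower with Aβ (right). From 200 bases upwards the medians descend from 0.036 to -0.024, and the shorter classes hold more higher than lower genes (67 and 36 at 200 to 500 bases) and the longer ones more lower than higher (15 and 0 at 5000 or more). The variance trend of the fit follows level and not length, while the median SD fell from 0.198 at 200 to 500 bases to 0.0982 at 5000 or more. The sizes of the shares are therefore not comparable between classes.

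The 6 libraries separated mainly by the run. Runs were taken as pairs from the order of the sample numbers and from correlations among these same libraries. The values below therefore describe that grouping and are not a separate test of it. The first principal component, with 39.2% of the variance, set libraries 11 and 12 apart from the other 4, and these 2 belong to different treatments. Pairs of libraries from the same run, which differ in treatment, had a median absolute log2 difference of 0.0743, 0.0784 and 0.101, below each of the 12 pairs from different runs (0.109 to 0.154), whether or not those shared a treatment. Chi-square per gene over the recovered fragments, where counting noise alone gives 1, was 2.46, 2.61 and 5.12 within runs and 8.49 to 17.1 between them. What a run stands for, a culture, a day or a processing batch, is not stated.

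**Figure D4:**
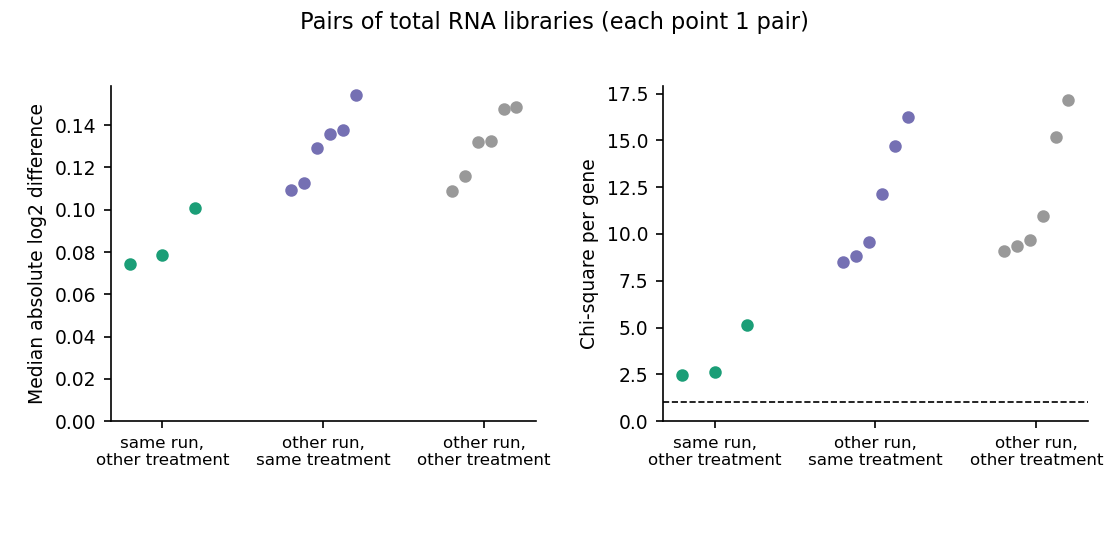
Median absolute log2 difference per gene (left) and chi-square per gene over recovered fragments (right) for the 15 pairs of total RNA libraries, each point a pair, with the dashed line at the value that counting noise alone gives. The 3 pairs from the same run, 1 Aβ and 1 vehicle library each, lie below all 12 pairs from different runs in both panels. The runs were taken as pairs partly from these same libraries.

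With the run as a block, 0 genes (0%) passed for Aβ against vehicle in limma, and the smallest adjusted p was 0.349. The number at an unadjusted p under 0.05 rose from 182 to 785 (6.38%), of which 385 were higher (3.13%) and 400 lower (3.25%) with Aβ, and 180 of the 182 were among them. A share of 0.05 is expected at this threshold without any treatment effect. The median SE of a log2 fold change fell from 0.0991 to 0.0671. Intervals within 1.5-fold then covered 11782 genes (95.7%), and within 2-fold 12197 (99.1%). With voom weights on the recovered fragments added to the block, an alternative chosen after seeing the data, 8 genes passed, 4 higher and 4 lower. The higher ones were ENSRNOG00000004252, ENSRNOG00000012538, ENSRNOG00000002116 and ENSRNOG00000048872, and the lower ones ENSRNOG00000040384, ENSRNOG00000004171, Novel00470 and Novel01719. The smallest adjusted p, 0.00775 in limma with voom, belonged to ENSRNOG00000004252, with 64.3, 47.1 and 66.5 in Aβ libraries and 44.1, 41.9 and 40.2 in vehicle libraries. Its groups did not overlap, nor did those of ENSRNOG00000012538 (432 to 495 with Aβ against 391.5 to 412 with vehicle), whereas those of the 6 others did. Within runs, the 4 lower genes were each lower with Aβ in every run. ENSRNOG00000004171, for example, stood at 3.23, 2.88 and 1.71 with Aβ against 3.67, 4.08 and 2.45 with vehicle. ENSRNOG00000002116 was lower with Aβ in the run 5 to 8 (45.6 against 53.5). ENSRNOG00000048872 was at 0 in both total RNA libraries of that run. Within-run differences agreed little between runs, with a correlation across genes of 0.015 between runs 1 to 4 and 5 to 8, 0.013 between 1 to 4 and 9 to 12, and 0.112 between 5 to 8 and 9 to 12. Genes within a library are not independent, and these values are given as a description.

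Between runs, 1638 genes (13.3%) differed at an adjusted p of 0.05 in the F test of limma, with treatment in the model. Since the runs were taken as pairs partly from these same libraries, this count is a description. The count depends on how variances are modelled, and was 328 without the variance trend, 233 without a filter on low values and 3530 with voom weights. Runs 5 to 8 and 9 to 12 were the most unlike, with 1795 genes past the threshold in that contrast, against 864 between 1 to 4 and 9 to 12 and 460 between 1 to 4 and 5 to 8. The share of genes differing grew with level, from 5.38% of genes with a mean FPKM under 2 to 32.5% of those at 100 or more, and likewise from 16.9 to 58.7% with voom weights, but without the variance trend the shares were 3.40 and 2.75%. The 1638 genes were chosen by this test, and their median range between runs was 0.445 on the log2 scale. Of them, 133 spanned over 2-fold between runs, and 1 of these 133 also differed over 2-fold between the treatments. The interval for Aβ with the run as a block was within 1.5-fold in 1593 of the 1638 (97.3%).

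The 3 genes with the smallest p between runs, printed for that reason after their values were seen, show how closely both treatments followed their run. ENSRNOG00000037911 stood at 194, 30.2 and 92.0 in the Aβ libraries of the 3 runs and at 193, 33.3 and 101 in the vehicle libraries. ENSRNOG00000051257 had 149, 24.5 and 71.7 in Aβ and 156, 26.4 and 63.9 in vehicle libraries. Both were highest in the run 1 to 4 and lowest in the run 5 to 8, in either treatment, and neither exceeded an FPKM of 0.952 in any pellet library. Novel00098 was near absent from the first runs, at 0.311 and 0.232 with Aβ and 0.499 and 0.510 with vehicle, and stood at 16.8 and 17.4 in the run 9 to 12. In the pellet it was present in every run, from 16.9 to 26.3. The adjusted p for the run was 2.34e-05, 0.000104 and 0.000148 in limma.

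**Figure D5:**
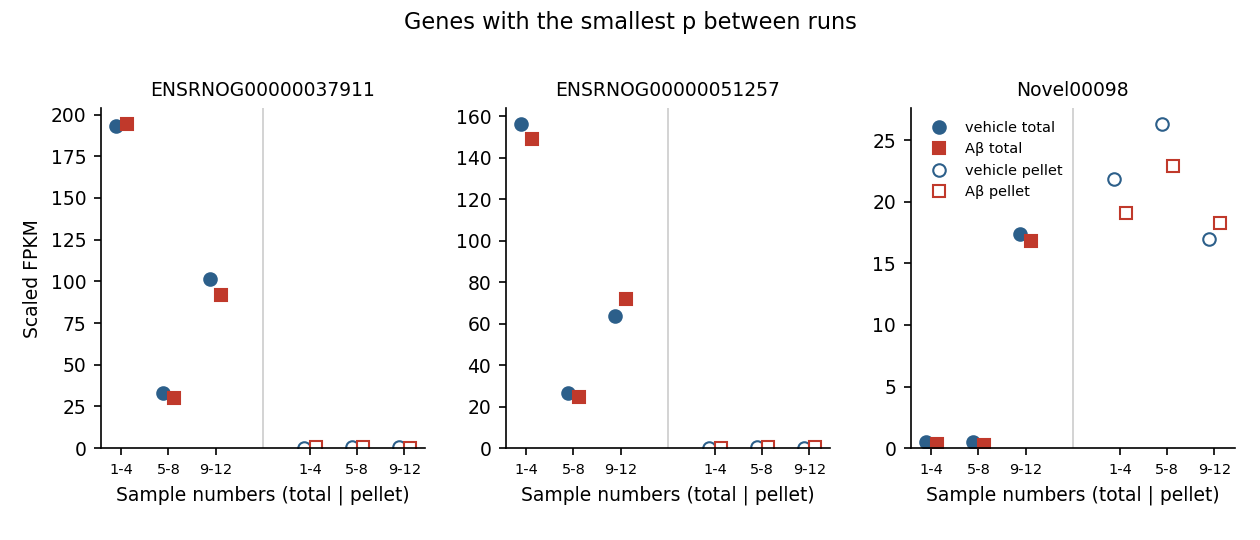
Scaled FPKM of the 3 genes with the smallest p between runs, by run of sample numbers, in total RNA (filled, left of each panel) and in the ribosome pellet (open, right), Aβ as squares and vehicle as circles. Within each run of total RNA the square and the circle lie close together while the runs span from 30.2 to 194 in the first panel, and the pellet does not repeat the order of the runs.

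The runs were also compared in the pellet. In the pellet libraries 92 of the same 12311 genes (0.747%) differed between runs, and 42 genes (0.341% of those tested) did so in both fractions, which is 2.56% of the 1638 and 45.7% of the 92. Of all genes tested, 0.747% differed between runs in the pellet, beside the 2.56%, and 13.3% in total RNA, beside the 45.7%. With 92 genes in the pellet, the 2.56% is small by construction. Over the 1638 genes the deviation of a run from the mean of the 3 runs correlated between total RNA and pellet at -0.037, -0.214 and -0.245, a description across genes with no test.

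Aβ against vehicle in the pellet gave 0 genes (0%) at an adjusted p of 0.05 in limma as well, with 48 (0.39%) at an unadjusted p under 0.05. The difference of the Aβ effect between total RNA and pellet, tested as an interaction over all 12 libraries, passed for 0 genes in limma, with 86 at an unadjusted p under 0.05. Of the 182 genes at an unadjusted p under 0.05 in total RNA, 81 (44.5%) had a fold change of the same sign in the pellet, close to the 46.3% of all genes tested, and 3 of them were also at an unadjusted p under 0.05 there. Of the genes at that threshold in total RNA with the run as a block, 308 (39.2%) had the same sign in the pellet, below the share of all genes. These shares are a description with no test. The log2 fold changes of the 2 fractions correlated across genes at -0.072, again a description.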

How the data were processed

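The authors aligned trimmed paired-end reads with TopHat 2.0.12 on a Bowtie 2.2.3 index, counted fragments on genes with HTSeq 0.6.1 in union mode and deposited FPKM, with no scaling between libraries and no pooling of replicates. Genome build, annotation and strand setting are not given in the sources used here. Libraries were grouped by their titles and labels. The last of 25425 listed genes was incomplete and left out. Genes, comparisons and lists were chosen with earlier results of these data known.

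Size factors by the median of ratios over the 6 libraries scaled the FPKM. Genes averaging an FPKM of 1 or more entered a linear model of log2(scaled FPKM + 1) in limma 3.58.1 (R 4.3.3), with moderated variances that follow the level, and p-values were adjusted after Benjamini and Hochberg (threshold 0.05). A fold change on this scale understates the change of low genes. Pellet libraries were scaled separately. The code was tested on simulated data. Fragments and lengths were recovered from the FPKM steps (tolerance 0.003 of a whole number). Intervals and floors cover counting and library spread as seen here only. Alternatives were unscaled FPKM, scaling to the 75th percentile of genes above 0 (upper quartile), a pseudocount of 0.1, a minimum mean FPKM of 5 or none, leaving out each library, the run as a replicate block, one fit over 12 libraries, eBayes without trend and voom weights on recovered fragments. Blocked fits with voom, a pseudocount of 0.1 or the stricter filter, both libraries of a run left out, voom for the runs and all results by transcript length were added after seeing the data. Figures used Python 3.11.15, numpy 2.4.6, pandas 2.3.3 and matplotlib 3.10.9.

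Runs of 4 sample numbers were taken as pairing the libraries, because deviations from the group means correlated at 0.395, 0.516 and 0.501 between the Aβ and vehicle libraries of a run. This pairing comes from the data and the order of the sample numbers, and no source states it. Planned gene lists, cell type markers and the genes to be named could not be applied, since 0 identifiers matched the GRCr8 gene table, which held no Ensembl identifiers for rat. In their place at most 2 identifiers higher and 2 lower were printed by the smallest unadjusted p, beside those said to be picked after their values were seen.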

Additional observations from a re-analysis of the deposited data

Results flagged for a closer look

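Novel00207 was higher with Aβ in all 3 runs of total RNA and lower with Aβ in all 3 runs of the ribosome pellet, where its log2 fold change was -1.128. The interaction of treatment and fraction, 1.68 on the log2 scale, had an unadjusted p of 0.000281 in limma and did not pass after adjustment over all genes (adjusted p 0.99984). In the pellet it stood at 0 in 1 Aβ library and at 0.220 or less in the other Aβ libraries. The gene was picked by its p in total RNA, whose values also enter the interaction.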

How the results depend on the processing

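For Aβ against vehicle, 0 genes passed under either other scaling, a pseudocount of 0.1, both filters, the run as a replicate block, 1 fit over 12 libraries, eBayes without trend and voom weights. Leaving out each library gave 0 to 1 genes. The 1 gene was ENSRNOG00000044833 without vehicle library 8 (lower, recovered at 10 bases and listed at 0 in 4 of the 6 libraries, the left-out one included) and ENSRNOG00000049025 without vehicle library 12 (higher). The same genes were the 1 passing without both libraries of numbers 5 to 8 and the 1 without both of 9 to 12. The replicate block with voom weights passed 8 genes, 4 higher and 4 lower. The replicate block with a pseudocount of 0.1 or a mean FPKM of at least 5 passed 0. The block changed the call of none of the 4 leading genes. In the pellet the blocked fit was used only to compare the runs, and its Aβ effect is not reported here. A blocked fit of the interaction was not run for this comparison.

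At an unadjusted p under 0.05 the count was 409 without a filter, 113 at a mean FPKM of at least 5, 27 in the fit over 12 libraries, 118 with voom weights and 785 with the replicate block. Without a filter 18993 genes were tested, of which 16768 had an interval within 1.5-fold and 18545 within 2-fold. Non-overlapping groups numbered 1433 to 1979 without 1 library and 2786, 2699 and 3100 without runs 1 to 4, 5 to 8 and 9 to 12, where fewer libraries have to separate. The count between runs was 233 without a filter, 328 without trend and 3530 with voom weights. The cause was not tested. The median log2 fold change of the genes from 2000 to 5000 bases turned to 0.00023 with upper-quartile scaling, and that of the genes under 200 bases ranged from -0.14 without vehicle library 12 to 0.0083 without Aβ library 11. The 4 leading genes kept their direction under every alternative in which they were tested.

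On the scale with 1 added, which narrows the intervals of low genes, those with a mean FPKM under 2 had an interval within 1.5-fold in 64.9% of cases. Genes under 200 bases did so in 11.5%.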

Other observations

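Genes were also compared by transcript length for the number of calls at an unadjusted p under 0.05 with the run as a block. They were 6.38% of all genes tested (3.13% higher and 3.25% lower), 30.7% of genes under 200 bases (18 higher and 41 lower), 22.2% of genes from 200 to 500 bases, 13.6% from 500 to 1000, 6.22% from 1000 to 2000, 2.95% from 2000 to 5000 and 1.73% at 5000 bases or more. From 200 bases upwards, 67, 128, 130, 42 and 0 were higher with Aβ and 36, 72, 124, 112 and 15 lower. None passed after adjustment over all genes. Median levels of the classes from 200 bases upwards lay between 10.9 and 14.5 FPKM, while the median fragments behind a gene went from 76.0 to 1244 per library and the median SD within a group from 0.198 to 0.0982. The variance trend of the fit follows level and not length.

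Among the 192 genes under 200 bases, 38 (19.8%) were lower with Aβ in all 3 runs and 14 (7.29%) higher, against 14.4 and 13.6% of all genes tested, and the run 9 to 12 minus the run 1 to 4 had a median of -0.36 on the log2 scale, averaged over treatments. Of the 35 that had at least 30 fragments per library, 6 exceeded 1.5-fold. Of 479 genes of 200 bases or more with under 30 fragments, 5 did.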
